A study of Mus musculus with 6 samples.

Results

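Endothelial junction and adhesion proteins are represented here by 9 genes of the vascular barrier, taken by symbol from a table of 29753 gene rows: Cldn5, Cdh5, Pecam1, Esam, Jam2, Jam3, Tjp1, Icam2 and Cd34. They were chosen by their place in that barrier, and proposed with the D14 against D0 expression values of these libraries known. All 9 were found, and all 9 passed the filter on low counts that left 17686 genes for testing. They were measured by bulk RNA sequencing in lungs of balb/c mice at D14 (3 libraries) and at D0 (3 libraries), where the day counts from the implantation, orthotopic by label, of K7M2, an osteosarcoma line of mouse origin known for lung metastasis. Both groups are of that strain and implanted by label, and a D14 group without K7M2 cells is not analysed here, so the tumour, the procedure, the age of the mice and the day of collection cannot be told apart. The titles call each library a biological replicate and do not say whether it is 1 mouse. Sftpc, a surfactant gene of alveolar epithelium, had 12874 to 18299.8 CPM (counts scaled to the library total and by TMM factors) at D14 and 12446 to 34630.1 CPM at D0.

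Endothelial cells line the vessels and seal the gaps between them with adherens junctions, built on VE-cadherin, and tight junctions, built on claudin 5 and the junctional adhesion molecules. ZO-1, the product of Tjp1, ties the tight junction proteins to actin. Pecam1, Icam2 and the sialomucin Cd34 also meet blood cells at the vessel wall, and in the lung this barrier keeps plasma out of the air spaces and is the layer that circulating cells cross. The genes are not equally restricted to endothelium: Tjp1 is also used by epithelium, Pecam1, Esam, Icam2 and Jam3 also by platelets or leukocytes, and Cd34 also by fibroblasts and blood progenitors.

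The libraries held 16171595 to 17385006 counts at D14 and 14878101 to 16001097 at D0. D0 replicate 3 stood apart, at 82.8 on the first principal component (42.6% of the variance) against −41.5 to 15.7 in the other libraries. It was low in long transcripts, with a median of −0.56 in log2 CPM relative to the mean of the other libraries for genes of 5808 bases or more, and 0.55 for genes of 1046 bases or fewer. Its summed general epithelial, leukocyte, red cell and mesothelial markers were the highest of the 6 libraries and its endothelial markers the lowest. Counts were not stated to be stranded. Jam3 and Cd34 overlap the antisense genes Gm48796 (13 to 44 counts in a library) and Gm16897 (15 to 49 counts), whose reads cannot then be told apart from theirs.

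The 9 genes had higher mean CPM at D14 than at D0, with fitted log2 fold changes of 0.13 (Cd34) to 0.73 (Pecam1) and a median of 0.31. The median over all tested genes was −0.03, and 46.9% of them were positive. In CPM the D14 and D0 libraries of 7 of the 9 genes did not overlap, with D14 higher. Of all tested genes 10.9% did so in that direction. The 2 exceptions were Cdh5 and Jam3. In TPM, a length-scaled level without TMM factors, only Cldn5 had separate ranges. The share of all genes with separate TPM ranges was not computed. None of the 9 passed an adjusted p of 0.05 in edgeR's quasi-likelihood test over all genes, where 0.0339% of the tested genes were called. Cldn5 and Pecam1 had an unadjusted p below that value, as did 5.48% of all tested genes in the upward direction. DESeq2 called 1 of the 9, Cldn5, and 1.12% of its genes in that direction, and limma-voom called 0. Without D0 replicate 3, 0.121% of all tested genes passed in edgeR, 0.0166% without D0 replicate 1, and 0.0923% with the length trend removed, and 0 of the 9 genes in each case. With no scaling factors between libraries only 2 of the 9, Cldn5 and Icam2, had separate ranges, against 5.96% of all tested genes. Leaving out D0 replicate 3 gave 7 of the 9 (15.2% of all genes), and leaving out D0 replicate 1 gave 8 (20.4%). These values describe genes proposed with them in view and are no independent evidence of a direction. In whole lung, more endothelial cells at D14 and more RNA per cell cannot be told apart.

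**Figure D1:**
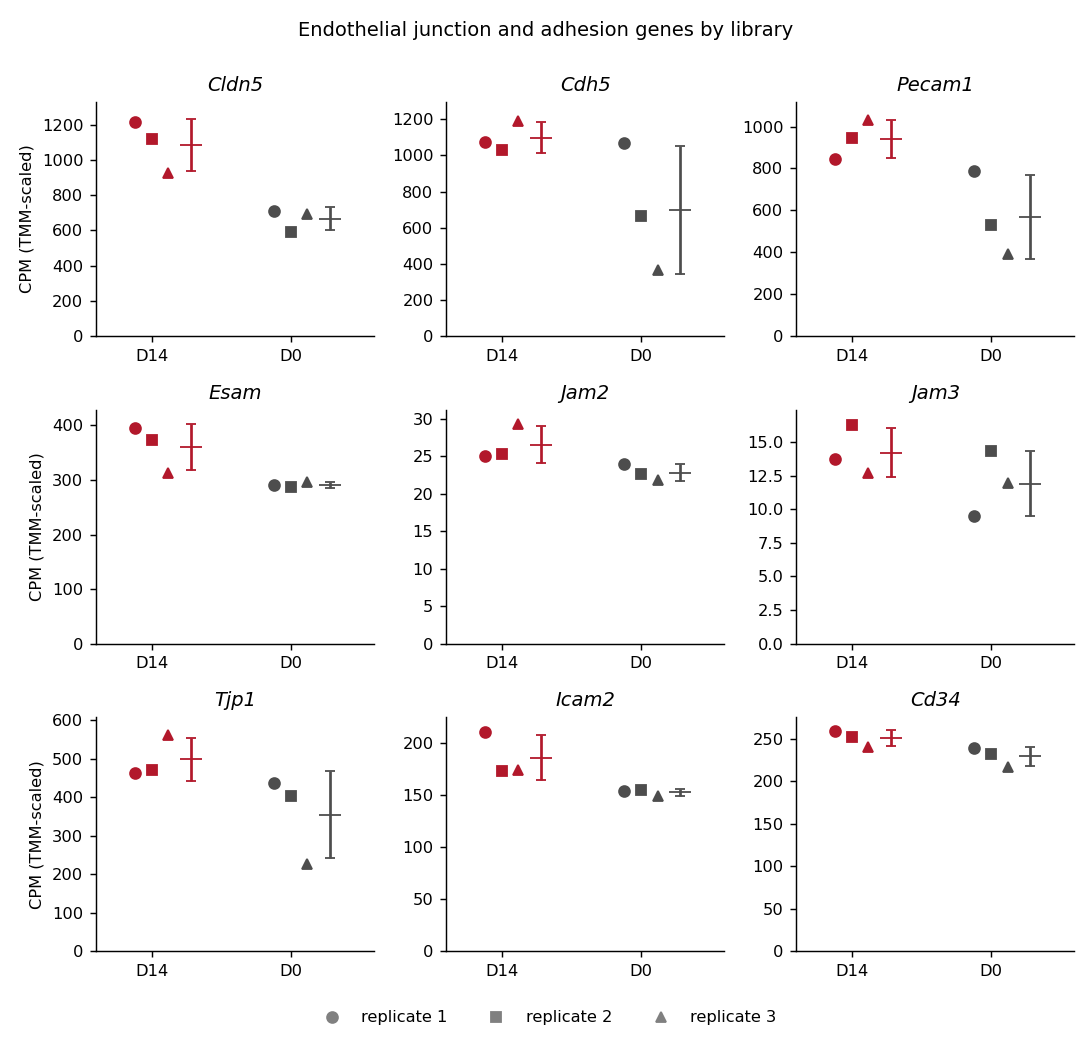
TMM-scaled CPM of the 9 junction and adhesion genes in each library, with D14 left of D0 (points are libraries, marker shapes are replicate numbers, bars are mean and SD, n = 3 per day). Cldn5 has 923 to 1214 CPM at D14 and 592 to 713 at D0, while Cdh5 has 364 to 1071 CPM at D0 and overlaps D14.

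Promoter windows of 3 of the 9 genes could be matched in RefSeq (GRCm38.p6), each covering 250 bases before to 50 bases after the gene start and printed 5′ to 3′ on the strand of the gene. These 3 matched windows are shown for their base composition and for the motifs given under them. Capitals mark matches, on both strands, to GGAAG (the core of ETS factor sites), ACAAT (the core of SOX sites), CCGCCC (SP and KLF sites) or TATAAA. No 2 of these motifs overlap in the windows.
Cldn5: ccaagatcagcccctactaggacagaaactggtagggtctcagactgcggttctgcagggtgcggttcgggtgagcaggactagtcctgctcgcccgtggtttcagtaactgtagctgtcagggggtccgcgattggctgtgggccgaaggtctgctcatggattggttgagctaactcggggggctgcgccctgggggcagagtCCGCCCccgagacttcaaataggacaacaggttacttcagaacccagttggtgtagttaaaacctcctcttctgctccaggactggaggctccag
Cd34: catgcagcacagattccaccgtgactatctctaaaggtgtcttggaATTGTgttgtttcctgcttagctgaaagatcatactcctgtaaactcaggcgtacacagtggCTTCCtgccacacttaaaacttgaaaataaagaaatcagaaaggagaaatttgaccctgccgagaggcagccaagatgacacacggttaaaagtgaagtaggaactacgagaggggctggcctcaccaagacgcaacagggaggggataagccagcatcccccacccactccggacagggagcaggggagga
Tjp1: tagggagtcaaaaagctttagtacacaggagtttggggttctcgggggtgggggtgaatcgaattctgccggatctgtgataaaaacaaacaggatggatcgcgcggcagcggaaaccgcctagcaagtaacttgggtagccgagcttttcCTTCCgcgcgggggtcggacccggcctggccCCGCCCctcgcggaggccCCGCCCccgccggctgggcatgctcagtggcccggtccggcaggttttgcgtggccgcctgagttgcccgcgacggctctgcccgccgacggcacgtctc
The Cldn5 window, chr16:18776597-18776896, plus strand, is 58.3% G and C and holds 1 CCGCCC match and no GGAAG match. The Cd34 window, chr1:194938571-194938870, plus strand, is 50% G and C and holds 1 GGAAG and 1 ACAAT match. The Tjp1 window, chr7:65371195-65371494, minus strand and inside the longer GENCODE span of the gene, is 65.3% G and C and holds 1 GGAAG and 2 CCGCCC matches. Of 32851 promoter windows of the same length, 71.4% hold GGAAG, 31.0% ACAAT, 35.7% CCGCCC and 13.6% TATAAA, and the median G and C content is 52.7%. A match is a string of letters, not a bound site.

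Claudin 5, the main sealing claudin of endothelial tight junctions, is encoded on chromosome 16 from 18776847 to 18778262 (GRCm38) by a transcript of 1416 bases. Cldn5 had 1214, 1121 and 923 CPM in the D14 libraries, against 713, 592 and 692 CPM in the D0 libraries. The lowest D14 library lay above the highest D0 library. In CPM D0 replicate 3 was not the lowest of its day, though in TPM it was. The mean was 1086 ± 148 CPM at D14 and 665 ± 64.6 CPM at D0 (SD, n = 3 each), which gave 0.71 (SE 0.18) as the log2 fold change with an adjusted p of 0.347 in edgeR. In DESeq2 the adjusted p was 0.00897 with a log2 fold change of 0.72, and over the other alternatives tried the adjusted p from edgeR or limma ran up to 0.713. Leaving out D0 replicate 3 gave a log2 fold change of 0.74, leaving out D0 replicate 1 gave 0.77, and it was 0.88 with the length trend of each library removed.

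Esam and Icam2 are small adhesion molecules of the immunoglobulin superfamily. Esam, on chromosome 9 from 37528078 to 37538319, is concentrated at endothelial tight junctions. It had 396, 373 and 313 CPM at D14, against 290.3, 287 and 296 CPM at D0. The highest D0 library was 1.03-fold the lowest, and every D14 library lay above them. Icam2, on chromosome 11 from 106377656 to 106388075, is a constitutive endothelial ligand of the leukocyte integrin LFA-1. It had 211, 172 and 174 CPM at D14, against 154, 154 and 148 CPM at D0, again without overlap. Log2 fold changes were 0.31 (SE 0.15) for Esam and 0.29 (SE 0.14) for Icam2, with adjusted p of 0.428 and 0.437 in edgeR.

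Cd34, on chromosome 1 from 194938819 to 194961279, encodes a sialomucin that carries ligands of L-selectin on some vessels. It had 259, 253 and 241 CPM at D14, against 239, 232 and 217 CPM at D0. The groups did not overlap, but the gap between the lowest D14 and the highest D0 library was small. The log2 difference of 0.13 (SE 0.14, adjusted p = 0.679 in edgeR) was the smallest of the 9.

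VE-cadherin, the adhesive core of endothelial adherens junctions, is encoded by Cdh5 on chromosome 8 from 104101625 to 104144511. Cdh5 had 1076, 1028 and 1193 CPM at D14, against 1071, 664 and 364 CPM at D0. D0 replicate 1 stood within the D14 values and D0 replicate 3 far below them, so the groups overlapped. The mean was 1099 ± 84.4 CPM at D14 and 700 ± 355 CPM at D0 (SD, n = 3 each), which gave 0.65 (SE 0.36) as the log2 fold change and an adjusted p of 0.458 in edgeR. Without D0 replicate 3 it was 0.34, and without D0 replicate 1 it was 1.10.

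Pecam1, on chromosome 11 from 106654217 to 106750628, encodes a homophilic adhesion receptor of the endothelial cell border that leukocytes engage as they pass. It had 847, 945 and 1029.7 CPM at D14, against 786, 528 and 391 CPM at D0. The groups did not overlap, though D0 replicate 1 was near the lowest D14 library. It stood at 0.73 (SE 0.26) on the log2 scale, with an adjusted p of 0.365 in edgeR. Tjp1, on chromosome 7 from 65296165 to 65527781, had 463, 470.1 and 562 CPM at D14, against 436, 404 and 226 CPM at D0. D0 replicate 3 was again the lowest library, and the fold change of 0.49 (SE 0.26; adjusted p = 0.451 in edgeR) became 0.25 without it.

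Jam2 and Jam3 encode junctional adhesion molecules, which bind each other across cell borders and are ligands of leukocyte integrins. Jam2, on chromosome 16 from 84774123 to 84825928, had 25.0, 25.3 and 29.4 CPM at D14, against 24.0, 22.7 and 21.8 CPM at D0. Jam3, on chromosome 9 from 27097384 to 27155421, had 13.7, 16.3 and 12.7 CPM at D14, against 9.48, 14.3 and 11.9 CPM at D0. Jam2 did not overlap and Jam3 did. The log2 fold changes were 0.22 (SE 0.14) and 0.26 (SE 0.21), with adjusted p of 0.514 and 0.594 in edgeR. For Jam2 it was 0.14 without D14 replicate 3 and 0.13 with the length trend removed, where its groups overlapped. For Jam3 it ran from 0.12 (D0 replicate 1 left out) to 0.42 (D0 replicate 2 left out). Jam3 rested on 163 to 255 counts per library, the fewest of the 9.

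**Figure D2:**
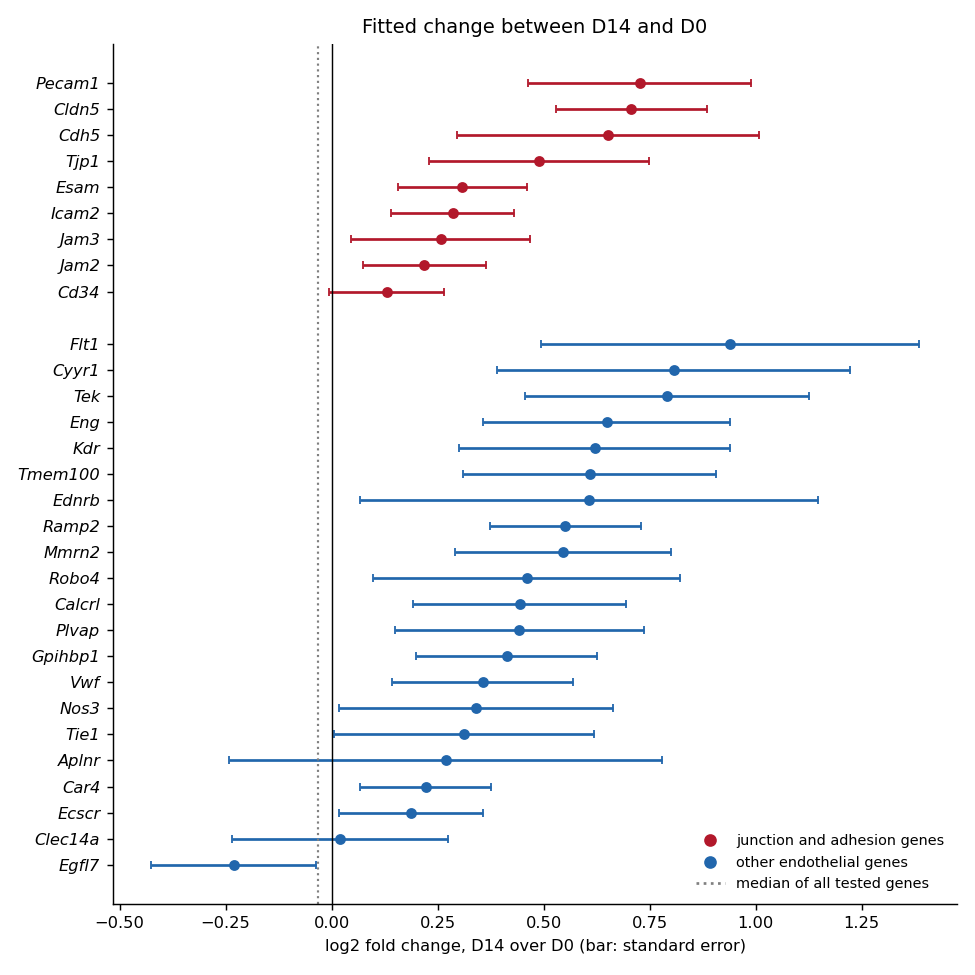
Fitted log2 fold changes of D14 over D0 for the 9 junction and adhesion genes and, under them, 21 other endothelial genes (points are estimates, bars are SE, the dotted line is the median of all tested genes at −0.03). Cldn5 at 0.71 has an SE of 0.18, and Cdh5 at 0.65 has an SE of 0.36.

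Per length, the order of mean levels was the same on both days. In TPM (a length-scaled level, from the longest coding transcript of each gene) Cldn5 averaged 1435 ± 203 at D14 and 878 ± 201 at D0 (SD, n = 3 each). Cdh5 averaged 515 ± 49.2 TPM at D14 and 349 ± 228 TPM at D0, and Pecam1 511 ± 49.1 and 323 ± 168 TPM on those days. Then came Esam (362 ± 43.9 TPM at D14, 291 ± 56.2 at D0) and Icam2 (271 ± 37.6 at D14, 223 ± 49.4 at D0). Cd34 (184 ± 8.98 TPM at D14, 169 ± 41.9 at D0) and Tjp1 (132 ± 16.1 at D14, 98.3 ± 46.3 at D0) followed. Jam3 (13.7 ± 1.41 TPM at D14, 11.4 ± 2.91 at D0) and Jam2 (11.4 ± 1.17 at D14, 9.82 ± 2.42 at D0) were the least abundant. Between the days only Cldn5 had separate TPM ranges, at 1233 to 1639 for D14 and 707 to 1100 for D0. The other members overlapped between days in TPM. The D14 ranges of neighbours in the order of means were separate, except those of Cdh5 and Pecam1 and of Jam3 and Jam2. Of the D0 ranges, those of Cldn5 and Cdh5 and those of Tjp1 and Jam3 were separate and the others overlapped. Within each D0 library Esam stood above Icam2, Icam2 above Cd34 and Cd34 above Tjp1. The order above Icam2 did not hold in each D0 library. In D0 replicate 3 Cdh5 (132 TPM) and Pecam1 (164) stood below Esam (230) and Icam2 (168). In D0 replicate 2 Pecam1 and Esam were at 304 TPM each.

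The genes differed in how widely their CPM varied within D0. The highest D0 library exceeded the lowest 2.94-fold in CPM for Cdh5, 2.01-fold for Pecam1 and 1.93-fold for Tjp1, against 1.16-fold, 1.22-fold and 1.21-fold at D14. For Cldn5, Esam, Jam2, Icam2 and Cd34 the D0 libraries lay 1.03-fold (Esam) to 1.204-fold (Cldn5) apart. Relative to the other 5 libraries, D0 replicate 3 was lower by 1.44 in log2 CPM for Cdh5, where genes of like length had a median of −0.17. The difference was −1.05 for Pecam1, against −0.06 for its length, and −1.04 for Tjp1, against −0.56. Cldn5 and Icam2 stood at −0.35 and −0.21, where genes of their length had a median of 0.36. Of the 9 genes, 8 lay below the median of their length and Jam2 lay above it, at −0.21 against −0.31.

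**Figure D3:**
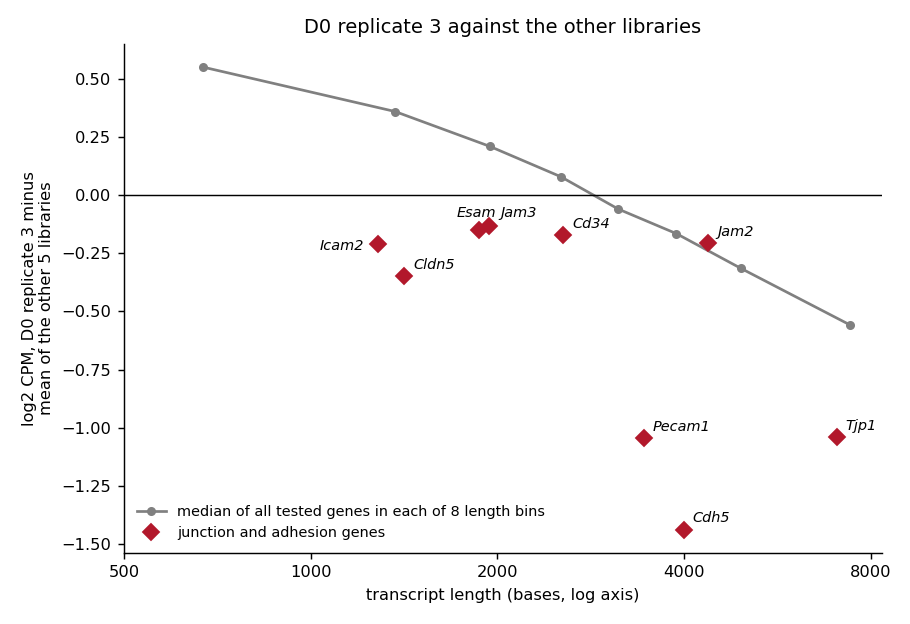
Log2 CPM in D0 replicate 3 minus the mean of the other 5 libraries against transcript length (log axis), for the 9 junction and adhesion genes (diamonds) and as medians of all tested genes in 8 length bins (grey line). The line falls from 0.55 to −0.56, and Cdh5, Pecam1 and Tjp1 lie at −1.44, −1.05 and −1.04.

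Across the 6 libraries the genes fell into patterns that the fold changes alone do not show. Pearson correlations of log2 CPM were 0.96 between Cdh5 and Pecam1, 0.96 between Cdh5 and Tjp1 and 0.92 between Pecam1 and Tjp1. They were 0.95 between Cldn5 and Esam, 0.87 between Cldn5 and Icam2 and 0.88 between Esam and Icam2. Between the sets they were lower, with 0.37 for Esam and Tjp1 as the lowest and 0.71 for Cldn5 and Pecam1 as the highest. Cd34 belonged to neither set, at 0.79 to 0.85 with these 6 genes. Jam2 stood at 0.78 with Cdh5, 0.87 with Pecam1 and 0.82 with Tjp1, against 0.58 with Cldn5, 0.34 with Esam and 0.52 with Icam2. Jam3 correlated with the others at 0.05 to 0.58. The sets also differed in transcript length. Cldn5, Esam and Icam2 have 1282 to 1865 bases, and Cdh5, Pecam1 and Tjp1 3441 to 7049. Cd34 has 2554 bases and Jam2 4370. The part of length in these patterns was not tested. These points share 6 libraries, their depth and the length trend of D0 replicate 3, and are a description.

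Outside the 9 genes, among 11102 tested genes with at least 10 CPM, the 5 most like Cdh5 were Ptgfrn, Ece1, Prkch, Wasf2 and Prickle2, with correlations of 0.998 to 0.999 over the 6 libraries. Ece1 encodes endothelin-converting enzyme 1. It had 519, 479.9 and 555 CPM at D14, against 491, 334 and 211 CPM at D0, the same order of D0 libraries as Cdh5. Those most like Cldn5 were Cdv3 and Gm15542 (0.99 each), then Inhbb, Prom1 and Gm5148 (0.98 each). Inhbb encodes the beta B subunit of activins and inhibins. It had 63.3, 49.4 and 34.8 CPM at D14, against 21.0, 13.6 and 14.4 CPM at D0, without overlap (log2 fold change 1.59, SE 0.27; adjusted p = 0.189 in edgeR). Ece1 and Inhbb were picked by correlation over these same libraries. The D0 order of Ece1 and the separation of Inhbb thus largely follow from that pick and are no further observation.

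Ratios of counts within a library do not depend on scaling between libraries. Esam over Cldn5 was 0.326, 0.332 and 0.339 at D14, against 0.407, 0.484 and 0.428 at D0. Icam2 over Cldn5 was 0.173, 0.154 and 0.189 at D14, against 0.216, 0.261 and 0.215 at D0. Cd34 over Cldn5 was 0.214, 0.225 and 0.261 at D14, against 0.335, 0.392 and 0.313 at D0. These 3 ratios were lower at D14 in every library. They share Cldn5 as denominator, whose own CPM separated by day, so they are not 3 independent observations. The share of all genes with a separate ratio to Cldn5 was not computed. Cdh5 over Cldn5 overlapped widely, with 0.886, 0.918 and 1.29 at D14, against 1.503, 1.12 and 0.527 at D0. Icam2 over Esam was 0.517 ± 0.0486 at D14 and 0.523 ± 0.0199 at D0 (SD, n = 3 each). The ratios were chosen after the values were seen and were not tested.

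**Figure D4:**
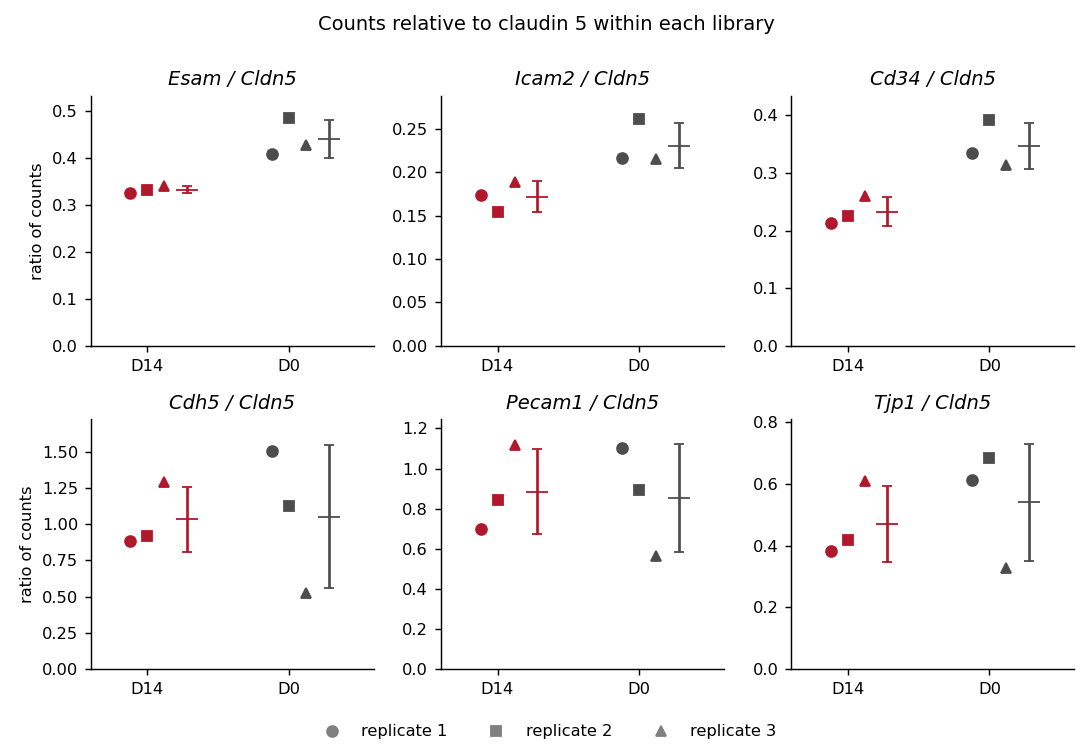
Ratio of the counts of 6 genes to those of Cldn5 in each library, with D14 left of D0 (points are libraries, bars are mean and SD, n = 3 per day). The ratios of Esam, Icam2 and Cd34, which share Cldn5 as denominator, do not overlap between days. That of Cdh5 spans 0.527 to 1.503 at D0.

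The mean log2 CPM of 21 other endothelial genes was 7.95, 7.97 and 8.03 at D14, against 7.99, 7.49 and 6.86 at D0. Their D0 libraries thus kept the order seen for Cdh5. Summed, these genes had 7334 to 8103 CPM at D14 and 3830 to 7548 CPM at D0. Of them 20 had a positive fold change, against 46.9% of all tested genes, with a median log2 fold change of 0.44. D14 libraries lay above those of D0 in 5, against 10.9% of all tested genes. Leaving out D0 replicate 3 gave a median of 0.25, and leaving out D0 replicate 1 gave 0.81. None passed in edgeR, DESeq2 or limma-voom. In edgeR 2 had an unadjusted p below 0.05, each higher, as did 5.48% of all tested genes in that direction. The most abundant, Calcrl, a receptor subunit for adrenomedullin, and Plvap, a protein of endothelial fenestrae and caveolae, stood at 0.44 (SE 0.25) and 0.44 (SE 0.29).

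Set against that mean, 1 of the 9 genes separated by day, by a small gap. The share of all genes that separate on this scale was not computed, and in CPM 10.9% were higher without overlap. Pecam1 stood 1.78, 1.91 and 1.97 log2 units above it at D14, against 1.63, 1.55 and 1.75 at D0. Cdh5 stood 2.12, 2.03 and 2.19 above it at D14, against 2.07, 1.88 and 1.65 at D0, with D0 replicate 1 inside the D14 values. Cldn5 overlapped, at 2.30, 2.16 and 1.82 at D14, against 1.48, 1.72 and 2.57 at D0. Cd34 stood at 0.07, 0.01 and −0.12 at D14, against −0.09, 0.37 and 0.90 at D0, a difference of −0.41 that was −0.15 without D0 replicate 3. Esam, Jam2, Jam3 and Icam2 overlapped too, with differences of −0.23, −0.32, −0.27 and −0.26. In that order the differences were 0.07, −0.06, 0.04 and 0.02 without D0 replicate 3. Leaving out that library also separated the Cldn5 values, with a difference of 0.49 in place of 0.17, while Tjp1 differed by 0.01 with all libraries (−0.01 against their median). With the median of these genes in place of their mean, Pecam1 again separated (1.38 to 1.53 at D14, 1.07 to 1.35 at D0). These differences were not tested.

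The intracellular and membrane partners of adherens junctions were positive in 16 of 18 genes, with a median log2 fold change of 0.24, and 0 passed in edgeR, DESeq2 or limma-voom (4 at an unadjusted p below 0.05 in edgeR, 3 higher and 1 lower, where 5.48% of all tested genes were higher and 7.09% lower). Ptprb, the endothelial phosphatase that associates with VE-cadherin, had 996, 971 and 1218 CPM at D14, against 893, 636 and 259 CPM at D0. Ctnna1, alpha-catenin, had 821, 850 and 834 CPM at D14, against 703, 727 and 656 CPM at D0. Neither overlapped, with Ptprb at 0.83 (SE 0.40) and Ctnna1 at 0.26 (SE 0.15) on the log2 scale. In CPM 7 of the 18 partners were higher at D14 without overlap and 1 was lower. Of all tested genes 10.9% were higher in this way and 10.7% lower. The largest fold change of this list was that of Cdh2, N-cadherin, chosen after its values were seen, at 1.29 (SE 0.39; adjusted p = 0.357 in edgeR), with 11.96 ± 2.30 CPM at D14 and 4.85 ± 2.32 CPM at D0 (SD, n = 3 each).

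Many other tight junction genes are used by epithelium as well. Of 14 other membrane and scaffold proteins 7 were positive and 7 negative, with a median log2 fold change of 0.00 to 2 decimals, which was −0.16 with the length trend removed. The most abundant, F11r, which encodes the junctional adhesion molecule JAM-A, and Cgnl1, paracingulin, stood at 0.06 (SE 0.15) and 0.05 (SE 0.16). Of 17 other claudins 11 were tested, 8 of them negative, with a median of −0.15 (−0.03 without D14 replicate 3 and −0.27 without D14 replicate 2). Cldn18, a claudin of alveolar epithelium, stood at −0.27 (SE 0.21) and Cldn3 at −0.30 (SE 0.20). In both lists 0 genes passed in edgeR, DESeq2 or limma-voom. At an unadjusted p below 0.05 in edgeR stood 1 higher and 1 lower scaffold gene and 0 claudins. Of all tested genes 5.48% were higher and 7.09% lower at that level.

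Other endothelial adhesion molecules were positive in 8 of 12 tested genes, with a median of 0.35. In 4 of them, Cd93, Vcam1, Emcn and Pvr, named after their values were seen, the D14 libraries lay above those of D0. Of all tested genes 10.9% did so. The log2 fold changes of the 4 were 0.89 (SE 0.40), 0.34 (SE 0.15), 0.45 (SE 0.17) and 0.59 (SE 0.15). Icam1, the inducible ligand of leukocyte integrins, had 558, 524 and 419 CPM at D14, against 563, 673 and 629 CPM at D0, and was the 1 gene of this list with D14 libraries below those of D0, as were 10.7% of all tested genes. Its log2 fold change was −0.31 (SE 0.17) and that of Alcam 0.05 (SE 0.14). Of the partners of the 9 genes on blood cells 4 of 10 were positive, with a median of −0.05 that was 0.02 to 0.08 when any 1 library other than D0 replicate 1 was left out. Itgb1, which pairs with many alpha chains and is widely expressed, stood at 0.42 (SE 0.18) and Itgb2, the beta chain of LFA-1, at −0.29 (SE 0.22). In edgeR and limma-voom 0 genes of either list passed. At an unadjusted p below 0.05 in edgeR stood 2 of each list, all higher, as did 5.48% of all tested genes. DESeq2 called 0 adhesion molecules and 1 partner, Cd38, in human a ligand of PECAM1, at 0.92 (SE 0.25; adjusted p = 0.0234). Of the genes DESeq2 tested, 1.12% were called higher.

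Transcription factors of endothelial genes were positive in 11 of 15, with a median of 0.42 (0.26 without D0 replicate 3 and 0.74 without D0 replicate 1). Klf2, a factor induced by blood flow, had 665, 506 and 534 CPM at D14, against 228, 516 and 530.3 CPM at D0. Klf4, a related factor that raises VE-cadherin expression in endothelium, had 325, 234 and 253 CPM at D14, against 110.1, 176 and 121 CPM at D0, without overlap. Of the 15 factors 3 were higher without overlap and 0 lower, against 10.9% and 10.7% of all tested genes. The log2 fold changes were 0.42 (SE 0.32) for Klf2 and 0.99 (SE 0.23; adjusted p = 0.326 in edgeR) for Klf4. In edgeR and limma-voom 0 factors passed. At an unadjusted p below 0.05 in edgeR stood 4, all higher, as did 5.48% of all tested genes. DESeq2 called Klf4 (adjusted p = 0.00902) and 1.12% of its genes in that direction.

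**Figure D5:**
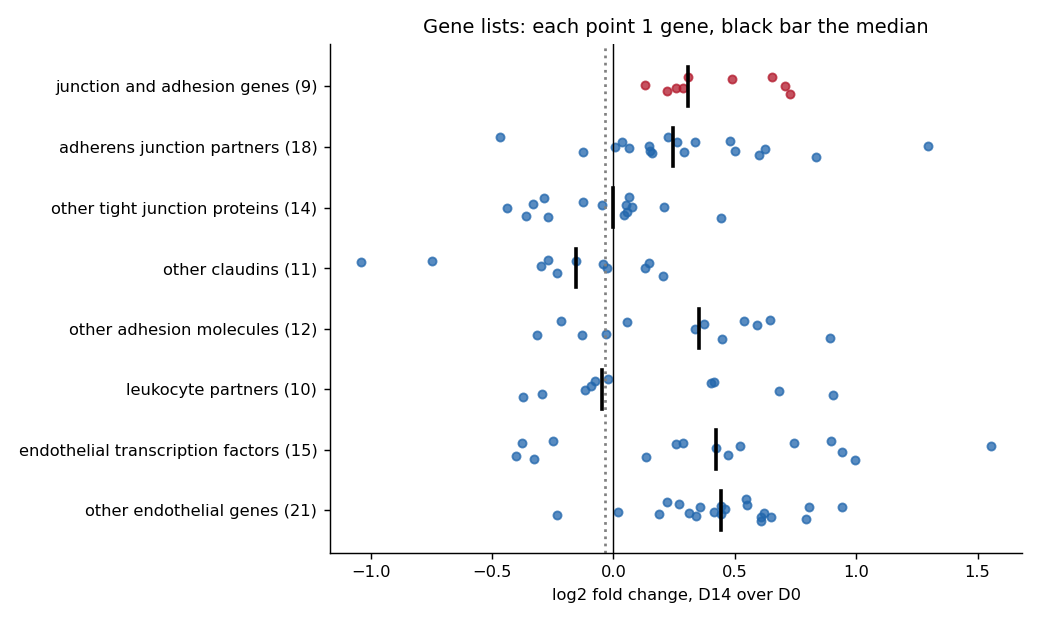
Log2 fold changes of D14 over D0 for each tested gene of the junction and adhesion genes and of 7 related lists (points are genes, black bars are medians, the number of genes stands in brackets, the dotted line is the median of all tested genes). Medians run from −0.15 for other claudins to 0.44 for other endothelial genes, with 0.31 for the 9 junction and adhesion genes.

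Markers of the other cells that use these genes were measured beside them, and none of the markers in these lists was at 0 in any library. Platelet markers summed to 62.1 to 84.8 CPM at D14 and 49.5 to 74.5 CPM at D0, positive in 8 of 10 genes (median log2 fold change 0.41; Pf4 −0.43, SE 0.26; Itga2b 0.38, SE 0.36). Fibroblast markers summed to 1692 to 1991 CPM at D14 and 1620.5 to 2109 CPM at D0 (3 of 10 positive, median −0.11; Col1a2 0.11, SE 0.15; Col1a1 −0.02, SE 0.15). Smooth muscle and pericyte markers summed to 484 to 550 CPM at D14 and 388 to 559 CPM at D0 (6 of 8 positive, median 0.31; Tagln −0.16, SE 0.41; Pdgfrb 0.60, SE 0.41). Leukocyte markers summed to 4828 to 5525 CPM at D14 and 4653 to 10225 CPM at D0 (4 of 10 positive, median −0.10; Lyz2 −0.44, SE 0.33; Laptm5 −0.13, SE 0.20). Leaving out D0 replicate 3 gave a platelet median of 0.19, and leaving out D0 replicate 1 gave 0.76. On leaving out those same libraries the fibroblast median was −0.02 and −0.30, and the smooth muscle median 0.32 and 0.18. For leukocytes it was −0.40 without D14 replicate 2, but −0.03 without D0 replicate 3. The part of these cells in the values of the 9 genes was not tested.

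Alveolar type 1 markers summed to 4496 to 5629 CPM at D14 and 4713 to 6694 CPM at D0 (median −0.27; Ager −0.29, SE 0.28; Clic5 0.20, SE 0.23). General and type 2 epithelial markers summed to 17098 to 23155 CPM at D14 and 17104 to 40384 CPM at D0 (median −0.06; Sftpc −0.46, SE 0.39; Sftpb −0.20, SE 0.19). Red cell markers summed to 16439 to 28909 CPM at D14 and 9241 to 52468 CPM at D0 (median −0.02; Hba-a1 0.00, SE 0.63; Hbb-bt −0.54, SE 0.53). Mesothelial markers summed to 627 to 746 CPM at D14 and 537 to 1439 CPM at D0 (median −0.57; Upk3b −0.69, SE 0.38; Krt19 −0.62, SE 0.28). The red cell median became 1.15 when D0 replicate 3 was left out, but −0.42 when D0 replicate 1 was. In the same order the mesothelial median was −0.27 and −0.81. The type 1 median ran from −0.41 (D14 replicate 1 left out) to −0.06 (D0 replicate 2 left out), and the general epithelial median from −0.16 (D0 replicate 1 left out) to 0.02 (D0 replicate 3 or D14 replicate 3 left out). Lymphatic markers summed to 396 to 470.0 CPM at D14 and 115 to 233 CPM at D0, without overlap (6 of 7 positive, median 0.48, which was 0.80 without D0 replicate 1, 0.34 without D0 replicate 3 and 0.24 with the length trend removed). The most abundant were Lyve1 at 1.70 (SE 0.34; adjusted p = 0.308 in edgeR, 0.000282 in DESeq2) and Flt4 at 0.80 (SE 0.38). Besides Lyve1, DESeq2 called 1 gene of these 9 marker lists, Cd79a of the leukocyte list, at −1.02 (SE 0.29; adjusted p = 0.0277), while edgeR and limma-voom called 0. At an unadjusted p below 0.05 in edgeR these lists held 5 higher genes (platelet, fibroblast, smooth muscle, red cell and lymphatic, 1 each). They held 3 lower genes, all leukocyte markers. Of all tested genes 5.48% were higher and 7.09% lower at that level, and DESeq2 called 1.82% of its genes in either direction.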

How the data were processed

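The submitters' processing notes list edgeR, StringTie 1.3.4b, HISAT2 2.1.0, CASAVA 1.8 and the build GRCm38, without roles. The counting tool, the annotation and strandedness: not given in the sources used here. The deposited table holds expected counts per gene symbol, called so because the counting tool is unknown; the values used were whole. The tissue label gives lungs, while the extraction text names BMDMs, and the samples are taken as lungs. Of 29757 gene lines, 4 were left out, 2 empty and 2 with values that are not whole. Another 50 rows repeated a symbol, and the row with the highest total kept the plain name. The table has 0 columns beyond the 6 samples.

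Genes were tested with edgeR 4.0.16 (R 4.3.3) with TMM factors, its default filter and the robust quasi-likelihood test, with no covariate over the 6 libraries, two-sided, and Benjamini-Hochberg adjustment over all tested genes and a threshold of 0.05. SE is the log2 fold change divided by the square root of F. Log2 CPM used a prior count of 2. The fit was tested on simulated data. Alternatives used DESeq2 1.42.0, limma 3.58.1 (voom), other scaling, filters and fits, each library left out, and, chosen after seeing the data, lowess trends (span 0.3) of log2 CPM on transcript length or GC content. A permutation test of 1 gene could reach no p below 0.1. Lengths and positions are those of GENCODE M21 (GRCm38), with the longest coding transcript.

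The members and gene lists were chosen with earlier results of these data known. Genes named are the 9 members, the 2 most abundant genes of each list and any past the threshold, and the 5 genes most like Cldn5 and Cdh5, with others marked in the text.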

Additional observations from a re-analysis of the deposited data

How the results depend on the processing

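The 9 genes kept a positive log2 fold change under all 16 alternatives, and none passed in edgeR or limma-voom under any of them. With DESeq2 1 passed, Cldn5, as did 1.12% of its genes in that direction. The median of the 9 log2 fold changes, 0.31, ran from 0.24 with no scaling factors to 0.45 with the length trend removed, and from 0.269 to 0.415 with 1 library left out. The count of 7 genes with separate CPM ranges fell to 2 (Cldn5 and Icam2) with no scaling factors. Of all tested genes 5.96% separated there. In TPM, which uses no TMM factors, only Cldn5 had separate ranges. The cause was not tested. The count in CPM was 7 to 8 with 1 library left out, where 13.6% to 20.4% of all tested genes separated. With the length trend removed it was 6 (11.1%). The log2 fold change of Cd34 ran from 0.06 with no scaling factors to 0.20 with the length trend removed. That of Cdh5 ran more widely, from 0.34 without D0 replicate 3 to 1.10 without D0 replicate 1. Over all genes the 6 calls became 272 with DESeq2, 26 with no low count filter, 16 with the length trend removed, and 0 to 22 with 1 library left out (0 without any 1 of the D14 libraries, 3, 1 and 22 without D0 replicates 1, 2 and 3). With no scaling factors the median of all genes was −0.10.

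Replicate numbers showed no clear pairing: deviations of same-numbered libraries correlated at 0.12, −0.05 and −0.10. Not every library correlated best with its own number. With 3 libraries per day these correlations cannot settle whether libraries were paired. With the replicate number as a block, 0 genes passed over all genes and 0 of the 9. Jam3 and Jam2 rested on 163 to 458 counts per library, against 2114 or more for the other members.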

Other observations

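SOX factors of the F subgroup, which bind regulatory regions of endothelial junction genes, stood highest in 1 D0 library. Sox18 had 145, 159 and 146 CPM at D14, against 353, 104 and 77.0 CPM at D0. Sox7 had 50.2, 53.9 and 43.5 CPM at D14, against 139.7, 26.5 and 19.1 CPM at D0. Sox17 had 62.1, 55.0 and 50.6 CPM at D14, against 102 CPM in D0 replicate 1 and 61.2 and 58.6 CPM in the other D0 libraries. The library with these high values, D0 replicate 1, was also in CPM the highest D0 library for Cldn5, Cdh5, Pecam1, Jam2, Tjp1 and Cd34. It was not so for Esam, Jam3 or Icam2. The mean log2 CPM of the 21 other endothelial genes was also highest there among D0 libraries, at 7.99 against 7.49 and 6.86. Erg, an ETS factor of endothelium, had 107, 88.4 and 98.4 CPM at D14, against 98.5, 65.2 and 40.7 CPM at D0. These genes were chosen after their values were seen, and their relation to the junction genes was not tested.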
